A study of Mus musculus with 30 samples.

Results

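The neuronal immediate early genes were taken as the 10 genes Fos, Fosb, Junb, Egr1, Egr2, Egr4, Arc, Npas4, Nr4a1 and Dusp1. They were found by matching their symbols to the Ensembl identifiers of a table of normalised read counts that covers 21412 genes. All 10 were in the table and all 10 passed the filter on low values in every comparison. Hippocampal RNA of 30 male BALB/c mice was sequenced, with 5 mice in each of 6 groups. The design crossed selenium with methylmercury (MeHg) given by mouth, and asks how each of them, and both together, change the hippocampus. Ctr mice received neither, LD mice a low dose and HD mice a high dose of MeHg. Se_Ctr, Se_LD and Se_HD mice received selenium with none, the low or the high dose. The study describes the low-dose feed as holding 0.28 mg and the high-dose feed 5 mg MeHg per kg, given for 11 weeks to mice that were 2 to 3 weeks old on arrival. The study's methods state these amounts for the feeds of Ctr, LD and HD only. That Se_LD and Se_HD mice received the same amounts is an assumption, and the amount of selenium is not given in the sources used here. All mice were of 1 inbred strain and 1 sex, the unspiked control feed carried the cysteine used as the vehicle for MeHg, and 1 library was made per mouse.

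Immediate early genes are transcribed within minutes of strong neuronal activity, without new protein synthesis, from signals that reach the nucleus through calcium and the MAP kinase cascade. Some encode transcription factors (the FOS, JUN, EGR and NR4A families and NPAS4), which switch on later waves of genes, and others act directly at the synapse or on the signal itself. In the hippocampus they are widely used as markers of recently active cells, they respond to handling, novelty, stress and time of day, and their RNAs are short-lived.

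The regulatory sequence just before the start of these genes shows what they share apart from their levels. It was read from RefSeq (GRCm38.p6) for 8 of the 10 members, all but Arc and Egr1, which are not reported here. The 250 bases before the start of 5 members are printed 5′ to 3′ on the gene's strand. These 5 were chosen because the results below turn on them, and Egr2 is shown for 1 of its 5 annotated starts. Capitals mark matches on either strand to the cAMP response element TGACGTCA, its core TGACG (which the full element contains), the letters TATAAA, the EGR motif GCGNGGGCG, and the CArG box bound by serum response factor. The window of Fos lies at chr12:85473640-85473889 (+), that of Egr2 at chr10:67537619-67537868 (+), Nr4a1 at chr15:101266596-101266845 (+), Npas4 at chr19:4989972-4990221 (-) and Dusp1 at chr17:26508473-26508722 (-).
Fos: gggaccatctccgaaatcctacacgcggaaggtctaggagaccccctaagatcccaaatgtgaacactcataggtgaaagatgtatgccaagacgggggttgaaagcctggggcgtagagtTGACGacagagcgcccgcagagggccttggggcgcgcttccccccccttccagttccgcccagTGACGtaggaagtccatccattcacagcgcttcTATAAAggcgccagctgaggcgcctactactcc
Egr2: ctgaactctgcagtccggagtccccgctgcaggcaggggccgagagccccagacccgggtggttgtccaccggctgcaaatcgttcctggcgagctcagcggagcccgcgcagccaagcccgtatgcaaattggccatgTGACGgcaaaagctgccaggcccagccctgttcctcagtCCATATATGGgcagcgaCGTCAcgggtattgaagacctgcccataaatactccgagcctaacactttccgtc
Nr4a1: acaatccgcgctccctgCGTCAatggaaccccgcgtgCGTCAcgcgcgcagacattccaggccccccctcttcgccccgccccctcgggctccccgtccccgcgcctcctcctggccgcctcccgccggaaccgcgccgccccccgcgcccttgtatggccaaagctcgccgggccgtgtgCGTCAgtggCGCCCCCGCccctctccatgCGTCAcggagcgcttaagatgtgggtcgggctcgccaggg
Npas4: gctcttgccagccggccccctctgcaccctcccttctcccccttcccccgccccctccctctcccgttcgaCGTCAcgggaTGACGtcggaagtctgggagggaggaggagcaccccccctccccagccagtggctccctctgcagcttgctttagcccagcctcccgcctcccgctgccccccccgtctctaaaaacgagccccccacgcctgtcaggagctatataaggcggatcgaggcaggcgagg
Dusp1: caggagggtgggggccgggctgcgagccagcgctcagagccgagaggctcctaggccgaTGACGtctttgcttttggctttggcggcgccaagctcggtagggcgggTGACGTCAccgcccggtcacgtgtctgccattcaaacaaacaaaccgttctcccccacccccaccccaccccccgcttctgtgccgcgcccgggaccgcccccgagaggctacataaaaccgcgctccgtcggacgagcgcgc
The core TGACG was found before at least 1 start of all 8 members that were read, and in 17.8% of the 32851 mouse promoters of the same length. The full element occurred in Dusp1 alone among the 8 (1.55% of all promoters), where it ended 136 bases before the start. The Egr2 promoter held a CArG box (1.47% of all promoters), Fos held TATAAA (12.4%), and Nr4a1 and Fosb each held the EGR motif (4.70%). These matches describe the letters only, and a window with no match tells nothing about the factor.

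All members were well detected, and the lowest count behind any value was 6 reads (Egr4). Per kilobase of exon, the mean over the 30 mice was highest for Egr1, at 513 normalised reads, followed by Arc at 429 and Nr4a1 at 249. Fos (89.4), Junb (88.7) and Npas4 (63.6) were intermediate, and Dusp1 (49.0), Fosb (41.7), Egr2 (35.2) and Egr4 (18.3) were lowest. On NCBIM37, the build of the deposited counts, Fos lies at chr12:86814840-86818223, Fosb at chr7:19888070-19895394, Junb at chr8:87500811-87502617, Egr2 at chr10:66998223-67004936, Egr4 at chr6:85461125-85463583, Arc at chr15:74499513-74503000, Npas4 at chr19:4984355-4989971, Nr4a1 at chr15:101097277-101105223 and Dusp1 at chr17:26642535-26645464. Egr1 overlaps the opposite-strand gene Gm17507 at its 3′ end. The libraries were stranded, but the strand setting of the counting is not given in the sources used here, so reads of the overlap cannot be assigned with certainty.

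The depth of the libraries ran from 5768208 to 11510521 assigned reads, with a median of 9351470.5. The summed markers of hippocampal neurons were present in every library, with dentate granule cell genes (Prox1, C1ql2, Dsp and Dock10) between 1267 and 2971 normalised reads and CA1 and CA3 pyramidal genes between 2945 and 4901. Markers of tissue outside the hippocampus were also present: the 5 choroid plexus genes ranged from 261 to 35989 and the 4 thalamus and habenula genes from 429 to 1891. In bulk tissue, fewer cells of a type and less RNA per cell cannot be told apart. Of the 30 libraries, 2 stood apart. Ctr library 13 was the shallowest, and 8.24% of its reads fell on 668 genes of ribosomal and other small structural RNAs, against 1.31% to 3.05% in the other 29 libraries. HD library 21 had the highest sum of astrocyte markers (22092, against a median of 12744 over all libraries) and the lowest sum of pan-neuronal markers (37641, against 54371). Much of that astrocyte excess lay in Aqp4, whose median over all libraries was 1532 and highest level 9364. The highest levels of Slc1a3 (8018), Gja1 (6147) and Aldh1l1 (911) in any library together fall well short of the sum. The part of these differences in the results below was not tested, and results that rest on either library are given with and without it.

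Across the 6 groups, the mean of 9 of the 10 members was highest in Ctr, the exception being Fosb, which was highest in LD. The mean was lowest in HD for 7 members and in Se_HD for Fos, Npas4 and Dusp1. The spread between mice was wide, however. The coefficient of variation in Ctr mice ran from 36.8% to 63.9% over the members (median 56.9%), and in Se_HD mice from 15.2% to 48.9% (median 24.0%). When the groups were ordered by mean for each member, none of the 50 pairs of neighbouring groups had ranges that did not overlap. Neighbours in this order have the closest means, so this count does not cover groups further apart. Neighbouring means lay further apart than the larger of their SDs in 1 pair, Se_Ctr above HD for Egr1, and in no other pair. The plot of levels by treatment group shows this overlap.

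**Figure D1:**
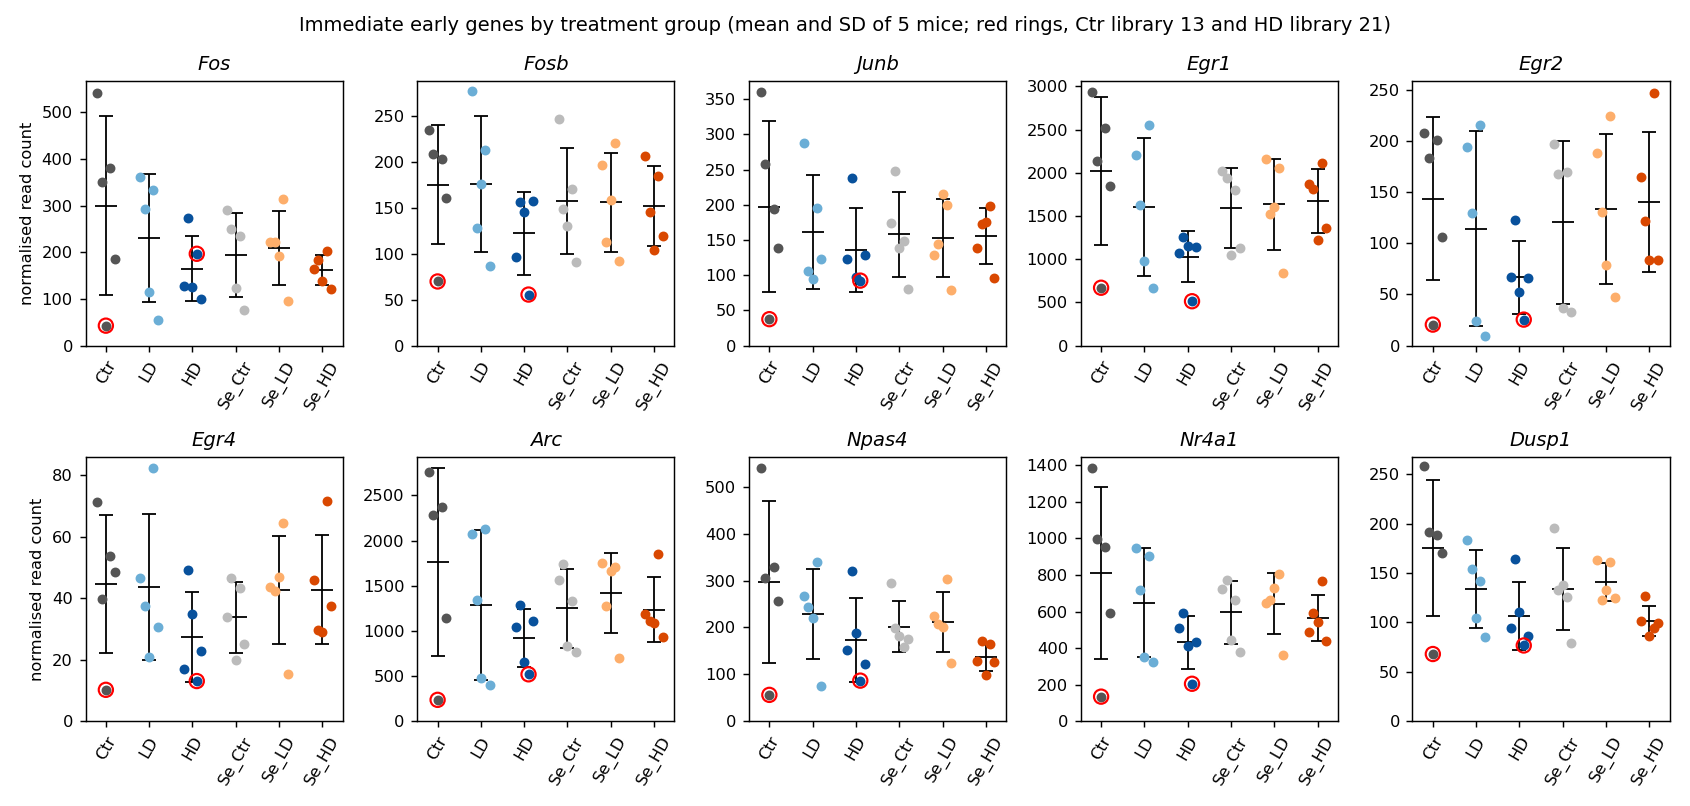
Normalised read counts of the 10 members (y axis, 1 scale per gene) in the 6 treatment groups (x axis), with 1 point per mouse and the mean ± SD of 5 mice in black. Red rings mark Ctr library 13, the lowest Ctr mouse in every panel, and HD library 21, the lowest HD mouse in all panels but Fos.

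Among the AP-1 subunits, Fos encodes the best known marker of neuronal activity. Its counts in Ctr mice were 42.5, 185, 350.4, 379.8 and 542, in LD mice 55.4, 115, 292, 334 and 361, and in HD mice 100.3, 126, 128, 197 and 274. With selenium they were 77.1, 124, 234, 249 and 289.6 in Se_Ctr, 95.3, 192, 221, 221 and 315 in Se_LD and 121, 138, 165, 183 and 202 in Se_HD. All 6 groups overlapped, and all HD mice lay below the median Ctr mouse but above the lowest one. The Ctr mean of 299.9 ± 192 (SD, n = 5) was the highest and the Se_HD mean of 162 ± 32.9 the lowest. Fosb, whose truncated product accumulates on repeated stimulation, ranged from 69.8 to 234 in Ctr, from 87.0 to 277 in LD and from 55.5 to 158 in HD. Junb, a dimerisation partner of FOS, ranged from 37.4 to 359.8 in Ctr, from 94.1 to 288 in LD and from 92.2 to 237 in HD. In the selenium groups Fosb lay between 91.4 and 247 and Junb between 78.3 and 248, so neither gene had a group apart from the others.

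The EGR members are zinc finger transcription factors, of which Egr1 is needed for lasting synaptic plasticity and memory. Egr1 counts in Ctr mice were 669, 1846, 2130.3, 2517 and 2940.2, in LD mice 664, 982, 1625, 2205 and 2557 and in HD mice 513, 1074, 1141, 1153 and 1251. In Se_Ctr mice they were 1044, 1132, 1794, 1945 and 2022, in Se_LD mice 835, 1517, 1598, 2058 and 2156 and in Se_HD mice 1220.2, 1359, 1809, 1865 and 2116. All 5 HD mice were thus below 4 of the 5 Ctr mice, and only library 13 made the ranges of the 2 groups overlap. Egr2, best known for its part in myelination and in the upkeep of plasticity, had counts of 20.4, 106, 183, 200.3 and 208 in Ctr mice, 8.90, 24.1, 129, 194 and 215 in LD mice and 25.3, 52.5, 66.3, 66.7 and 122 in HD mice. In Se_Ctr mice they were 32.3, 36.3, 167, 170.0 and 197, in Se_LD mice 47.3, 78.6, 129.97, 188 and 224 and in Se_HD mice 83.1, 83.5, 121, 165 and 246. The LD and Se_Ctr mice each fell into 2 low and 3 high values, with none in between. Egr4, the weakest member, lay between 10.2 and 82.4 over all 30 mice, with group means from 27.3 ± 14.7 in HD to 44.7 ± 22.5 in Ctr.

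Arc encodes a cytoskeleton-associated protein that acts at dendrites to remove AMPA receptors from synapses. Its counts were 237, 1145, 2279.9, 2377 and 2754 in Ctr mice, 398, 482, 1343, 2069 and 2123 in LD mice and 519, 654, 1042, 1115 and 1284 in HD mice. The selenium groups held 772, 829.9, 1335, 1565 and 1743 (Se_Ctr), 695, 1272, 1664, 1712 and 1749 (Se_LD) and 929, 1086, 1111, 1188 and 1857 (Se_HD). The LD mice left a gap between 482 and 1343, and the HD range lay inside the ranges of both Ctr and LD. Nr4a1, an orphan nuclear receptor, had counts of 134, 592, 952, 995 and 1385 in Ctr mice and 205, 414, 434, 513 and 595 in HD mice. It ran from 323 to 947 in LD and from 365 to 807 over the selenium groups. A single HD mouse, at 595, lay above the second lowest Ctr mouse, at 592.

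Npas4 is a transcription factor specific to neurons that tunes their inhibitory input, and it is induced by calcium entry rather than by growth factors. Its counts were 56.1, 257, 306, 329 and 539.7 in Ctr, 75.1, 219.7, 243, 266 and 339 in LD and 86.5, 121, 153, 188 and 320.0 in HD. They were 158, 176, 182, 198 and 295 in Se_Ctr, 125, 201, 207, 225 and 303 in Se_LD and 99.0, 125, 129, 164 and 170.0 in Se_HD. In the selenium groups 3 of the 5 Se_HD mice were below every Se_Ctr mouse, and all 5 were below the Se_Ctr median. Dusp1 encodes a nuclear phosphatase that switches MAP kinases off again. Its counts were 68.1, 170.2, 189, 192 and 258 in Ctr, 85.0, 105, 142, 154 and 184 in LD and 76.7, 86.4, 94.8, 110.3 and 164 in HD. In Se_Ctr they were 78.9, 125, 133, 138 and 195, in Se_LD 123, 125, 133, 161 and 163 and in Se_HD 86.3, 94.4, 99.0, 101.03 and 127. Both high-dose groups lay wholly below the median of their own control group, and both overlapped its range.

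High-dose MeHg without selenium was compared with Ctr by limma's moderated test on log2(normalised count + 1), over the 15 libraries without selenium. Following the order of tests in the study's methods, an F test came first and the contrast next. A gene counted as changed when an F test across Ctr, LD and HD and then the contrast itself each gave an unadjusted p under 0.05. With all mice, all 10 members had a lower mean in HD, with log2 fold changes from -0.90 (Egr2) to -0.30 (Junb) and a median of -0.61, against 0.01 over the 20031 genes tested. Of those genes, 48.8% were lower in HD. None of the 10 members passed, where 5.09% of all genes did, and 2 had a contrast p under 0.05. These were Egr1 at -0.88 (SE 0.36, 95% interval -1.64 to -0.12, limma adjusted p = 0.494) and Dusp1 at -0.65 (SE 0.28, 95% interval -1.24 to -0.06, limma adjusted p = 0.534), and neither passed the F test. By the exact two-sided permutation test of 5 mice against 5, whose smallest p is 0.00794, p was 0.0952 for Egr1 and 0.135 for Dusp1. On the recovered reads, edgeR called 2 members (Egr1 and Dusp1, with 5.85% of genes called) and DESeq2 called 1 (Dusp1, with 5.45% of genes called), by the same rule.

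This count rested on a single mouse. Ctr library 13 was the lowest Ctr mouse for all 10 members and the lowest of all 30 mice for 7 of them, with a median distance of -1.82 on the log2 scale from the members' means. Without it, 8 of the 10 members fell in HD at unadjusted p (all but Junb and Egr2), where 5.86% of 19730 genes were called. The median log2 fold change became -1.13, and the range ran from -1.49 (Egr2) to -0.80 (Fosb). Among the remaining mice, the highest HD mouse stayed under the lowest of the 4 Ctr mice for Fosb, Egr1 and Dusp1, 4 of 5 HD mice did for Junb, Egr2, Egr4, Arc, Npas4 and Nr4a1, and 3 did for Fos. Of 19730 genes, 1.53% had every HD mouse below every remaining Ctr mouse. The lowest limma adjusted p was then 0.0912 for Dusp1, at -0.95 (SE 0.22), so none passed after adjustment. Egr1 gave -1.24 (SE 0.31), Nr4a1 -1.20 (SE 0.33), Arc -1.22 (SE 0.42), Fos -1.13 (SE 0.44), Npas4 -1.12 (SE 0.36) and Egr4 -1.06 (SE 0.37). With HD library 21 left out as well, 6 members were called (Fos, Egr1, Arc, Npas4, Nr4a1 and Dusp1) and 4.47% of genes. Leaving out LD library 26 or HD library 9 gave 1 call, and every other single mouse left the count at 0. Other mice lowered the estimates: without Ctr library 1, the highest Ctr mouse for all 10 members, the median log2 fold change was -0.37, that of Fos -0.22, and Junb turned to 0.0028. Without HD library 21 alone the median was -0.40. Some marker sums also differed between HD and Ctr. The 5 microglia markers summed to between 2177 and 3830 in HD and between 1789 and 2030 in Ctr, and the 6 inhibitory neuron markers to between 3950 and 4970 in HD and between 5043 and 6095 in Ctr, so neither pair of ranges overlapped. In LD the microglia sums ran from 1726 to 2071 and the inhibitory sums from 4655 to 5967, and both overlapped Ctr. With selenium, microglia sums ran from 1862 to 2217 in Se_HD and from 1652 to 2289 in Se_Ctr. Inhibitory sums ran from 5112 to 6308 in Se_HD and from 4856 to 5933 in Se_Ctr, so both overlapped there too. The 4 astrocyte markers ranged from 13584 to 22092 in HD and from 11998 to 14519 in Ctr. No marker was at 0 reads in any library, and the part of tissue composition in the members' levels was not tested. Leaving out library 13 was not independent of these genes, since it was singled out in part by their levels. Its share of structural RNA is a separate measurement, and the part of that share in its low values was not tested.

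**Figure D2:**
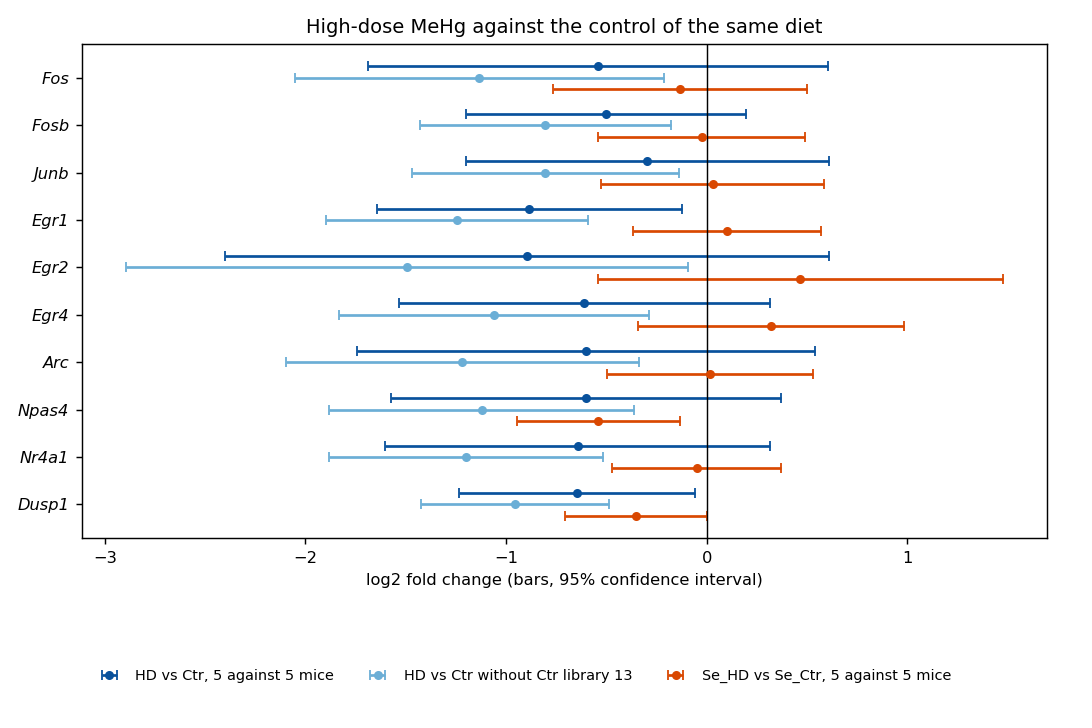
Log2 fold changes of the 10 members at the high dose (x axis) with 95% confidence intervals, for HD against Ctr with all mice, HD against Ctr without Ctr library 13, and Se_HD against Se_Ctr. All 10 points of the first and second series lie below 0, the intervals of the second exclude 0, and in the third series only that of Npas4 does.

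At the low dose 8 of the 10 estimates were below 0, as were 48.9% of all genes, and none was called. None of the 10 members changed in LD against Ctr (1.46% of genes called), with none at a contrast p under 0.05 in limma and no call by edgeR or DESeq2. The log2 fold changes ran from -0.74 (Egr2, SE 0.72) to 0.05 (Egr4, SE 0.44), with a median of -0.25. The 95% interval for Fos was -1.41 to 0.88 and for Arc -1.51 to 0.77, so these mice left a wide range of changes in both directions. Without Ctr library 13 (1.84% of genes called), 3 members fell: Egr1 by 0.70, Arc by 0.99 and Dusp1 by 0.63 on the log2 scale, at unadjusted p only. With sets of library numbers as a covariate as well (1.66% of genes called), Egr1 was not called (-0.66, SE 0.32), and the 4 called were Fos (-0.74), Arc (-0.80), Npas4 (-0.79) and Dusp1 (-0.60). LD and HD share the Ctr mice, so their values stand side by side and are not independent.

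With selenium, 1 member, Npas4, was called by limma. None of the 10 members changed in Se_LD against Se_Ctr (1.46% of genes called), by limma, edgeR or DESeq2 and with none at a contrast p under 0.05. The log2 fold changes lay between -0.04 and 0.32. In Se_HD against Se_Ctr (2.06% of genes called), 1 of 10 was called: Npas4 fell by 0.54 on the log2 scale (SE 0.20, 95% interval -0.95 to -0.13, limma adjusted p = 0.9996). The exact permutation test gave p = 0.0317 for it. The call was lost (0 members) without Se_HD library 18 and when all 30 libraries were fitted together. Dusp1 gave -0.35 (SE 0.17, exact permutation p = 0.159), and edgeR and DESeq2 called it beside Npas4, as limma did after quantile normalization (2 members), with sets of library numbers as a covariate (-0.35, SE 0.15, with 2.03% of genes called) and without Se_Ctr library 28 or Se_HD library 12 (2 members each). The other 8 members lay between -0.13 and 0.47, with 5 of the 10 below 0 in all.

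Whether the effect of the dose differed between the diets was tested with interaction contrasts over all 30 libraries. For the high dose, 1 of the 10 members passed (4.77% of genes called): the change of Egr1 was higher by 0.99 with selenium (SE 0.47, 95% interval 0.02 to 1.95, limma adjusted p = 0.997). All 10 contrasts were above 0, with a median of 0.54, while 52.0% of all genes had a contrast below 0. Both edgeR and DESeq2 called Egr1 as well. In limma its call was lost when any of 10 single mice was left out: Ctr libraries 1, 7, 19 and 25, HD library 21, Se_Ctr libraries 16 and 28, and Se_HD libraries 6, 12 and 24. Without library 13 (5.56% of genes called) 5 members passed, namely Egr1, Egr2, Egr4, Arc and Nr4a1, with the lowest limma adjusted p at 0.557. For the low dose none of the 10 passed (3.75% of genes called), none by edgeR or DESeq2, and 2 did without library 13 (Arc and Dusp1, with 4.08% of genes called). All of these interactions use the same Ctr mice as the comparisons above.

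Selenium alone and the contrasts pooled over diets or doses gave no call by limma with all mice and no covariate. In Se_Ctr against Ctr all 10 members were lower in mean, between -0.36 (Fos) and -0.08 (Junb), as were 48.8% of all genes. None was called (1.3% of genes called, none at a contrast p under 0.05, and no call by edgeR or DESeq2). Without Ctr library 13 (1.63% of genes called), Npas4 (-0.80), Nr4a1 (-0.71) and Dusp1 (-0.63) were called. For selenium pooled over the doses the count was 0 (2.3% of genes called), as it was for the low dose pooled over the diets (0.823% of genes called), with none at a contrast p under 0.05 and no call by edgeR or DESeq2 in either. For the high dose pooled over the diets (4.21% of genes called), none of the 10 passed the F test over the 6 groups, although Dusp1 (-0.50, SE 0.18, limma adjusted p = 0.309) and Npas4 (-0.57, SE 0.28, limma adjusted p = 0.542) had a contrast p under 0.05. Both edgeR and DESeq2 called Dusp1 there, as did limma with the sets of 6 consecutive library numbers described below as a covariate (-0.50, SE 0.15, limma adjusted p = 0.238, with 4.12% of genes called). Without library 13 (4.65% of genes called), limma called Egr1, Npas4, Nr4a1 and Dusp1, and the adjusted p of Dusp1 was 0.0442 at -0.65 (SE 0.15). By diet, the Dusp1 estimates were -0.65 without and -0.35 with selenium.

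The members also differed between sets of library numbers. Sample titles carry numbers from 1 to 30, and each run of 6 consecutive numbers holds 1 mouse of each group. What the runs stand for is not given in the sources used here. All 10 members had their 2 lowest set means in libraries 13 to 18 and 25 to 30. Fos averaged 284 ± 152 (SD, n = 6) in libraries 1 to 6, 262 ± 58.3 in 7 to 12 and 277 ± 76.3 in 19 to 24, against 123 ± 47.9 in 13 to 18 and 106 ± 44.7 in 25 to 30. Egr2 averaged 169.7 ± 52.4, 142 ± 26.1 and 180.2 ± 80.0 in the same 3 sets, and 49.2 ± 27.1 and 57.3 ± 35.2 in libraries 13 to 18 and 25 to 30. Between the 2 low and the 3 high sets, the mean log2 level differed from -0.45 (Dusp1) to -1.74 (Egr2). These differences describe sets ordered by the outcome and carry no test.

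In a limma F test over the 5 sets, with the 6 groups in the model, 8 of the 10 members had an unadjusted p under 0.05, where 4.08% of 21383 genes did. Fosb and Egr4 did not. Fos and Egr2 had the lowest p of the members, with limma adjusted p = 0.144 and adjusted p = 0.156. No gene passed after adjustment. Without Ctr library 13, 9 members passed at unadjusted p (4.13% of genes), and Fos became the only gene of 21281 with an adjusted p under 0.05, at 0.00287. Without HD library 21 as well, all 10 members passed at unadjusted p (3.98% of genes), and the adjusted p was under 0.05 for Fos, Egr2 and Nr4a1. This test was added after the pattern was seen. Within the sets, the HD mouse was lower than the Ctr mouse for all 10 members in 3 of the 5 sets and for 8 members in libraries 7 to 12, while it was higher for all 10 in libraries 13 to 18, where the Ctr mouse is library 13. The median differences of these 5 pairs were -1.50, -0.38, 1.41, -1.94 and -0.68 on the log2 scale in the order of the library numbers. With the sets as a covariate, HD against Ctr still gave 0 member calls (4.94% of genes called), and 7 without library 13 (5.61% of genes called).

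**Figure D3:**
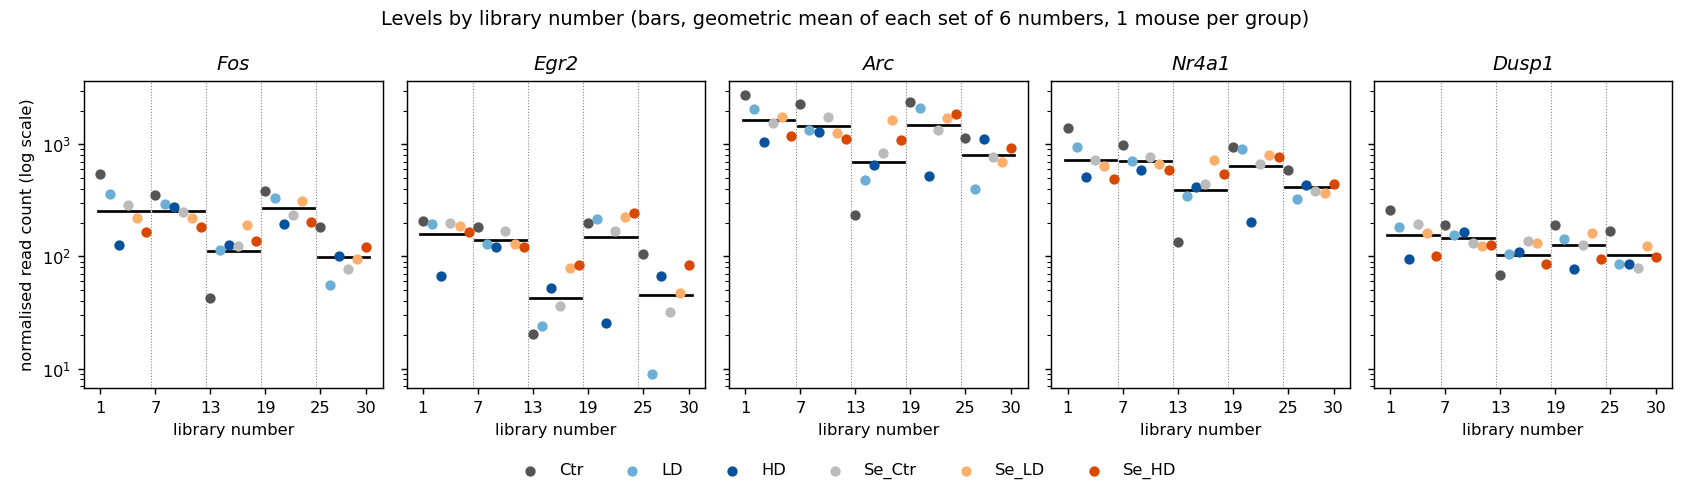
Normalised read counts of 5 members on a log axis against library number, with 1 point per mouse coloured by group and bars for the geometric mean of each set of 6 numbers. The bars of libraries 13 to 18 and 25 to 30 lie below the other 3 in every panel, and Fos and Egr2 show the widest step.

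Other gene lists were read against the same sets, in which 4.08% of all genes had an unadjusted p under 0.05. Of 43 other rapid activity-induced genes, 18 did so, with Sik1, Nfil3 and Klf4 lowest, as had 7 of 15 clock genes, 4 of 12 glucocorticoid-induced genes, 3 of 26 late activity-induced genes and 1 of 38 identifiers of upstream kinases and transcription factors. Over 14 lists of cell type and tissue markers, 5 genes passed of the 64 tested. These were Prkcd and Tcf7l2, 2 of the 4 markers of thalamus and habenula, and Grik4, Drd2 and Hbb-b1. The thalamus and habenula sum averaged 609 ± 99.1, 1115 ± 568, 623 ± 181, 590.4 ± 123 and 879.5 ± 546 in the order of the library numbers. The part of tissue from outside the hippocampus in the differences between sets was not tested. Of the 7 clock genes, 5 (Dbp, Nr1d1, Nr1d2, Per3 and Tef) averaged higher in libraries 13 to 18 and 25 to 30 than in the others, and 2 (Per1 and Arntl) averaged lower, as the members did. Among them, Dbp, an output gene of the clock, had the lowest p (limma adjusted p = 0.121). Its direction was opposite to that of the members: it averaged 283 ± 71.9 in libraries 13 to 18 and 252 ± 66.2 in 25 to 30, against 184 ± 47.0, 177 ± 65.1 and 132 ± 23.8 in the other sets. Nr1d1, a repressor within the clock, averaged 796 ± 104 and 726 ± 85.6 in those sets, against 538 to 588 in the others. The hour at which each mouse was killed is not given in the sources used here, and its part in the difference between the sets was not tested.

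The members moved together from mouse to mouse. With group means removed, the 45 pairs of members had Pearson's r between 0.67 and 0.97 over 30 mice (median 0.82) and Spearman's rho between 0.57 and 0.95. Permutation within groups (100000 draws) gave adjusted p-values of at most 0.00150 for r and 0.00330 for rho over the 45 pairs. Arc and Nr4a1 were the closest pair, with r = 0.97, rho = 0.95 and permutation p = 1e-05 for each, the smallest the draws can give. Egr4 and Dusp1 were the least close. Leaving out the 2 mice farthest from the median of the first gene of a pair gave r between 0.54 and 0.95. Without Ctr library 13 the range was 0.54 to 0.95, and with the set means removed as well it was 0.56 to 0.96. The 2 genes of a pair share each mouse's library and size factor, and the correlation does not tell which differences between mice it follows.

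**Figure D4:**
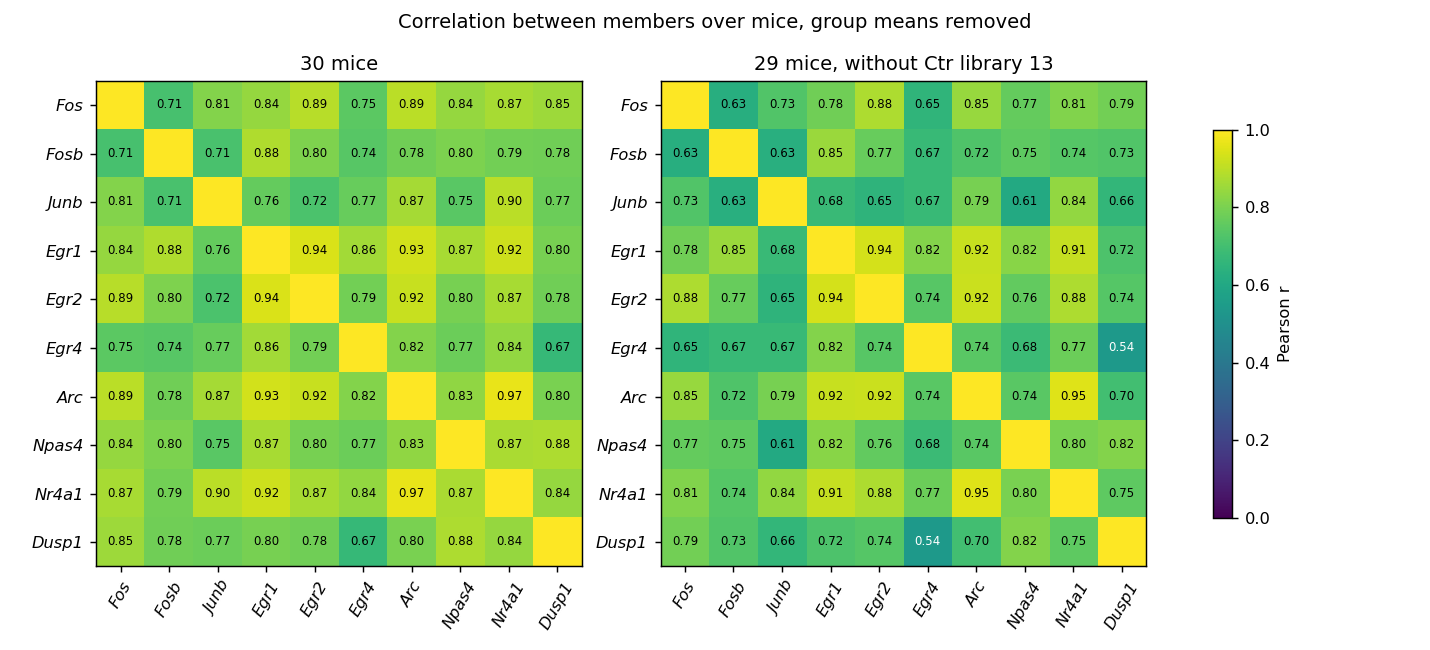
Pearson's r between the levels of each pair of members over mice, with group means removed, for all 30 mice (left) and for 29 mice without Ctr library 13 (right). Every pair is above 0.6 on the left and above 0.5 on the right, with Arc and Nr4a1 closest in both.

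In a search of 13004 genes that averaged at least 20 normalised counts, those outside the 10 members that were most like the mean of the 10 members were 1700016P03Rik (r = 0.90), Per1 (0.87), Stac3 (0.87), Midn (0.86), Kdm6b (0.83), Tm6sf2 (0.82), Sik1 (0.81), Tob2 (0.81), Btg2 (0.80) and Shkbp1 (0.79). The median r over these genes was -0.01, and without Ctr library 13 the 10 genes lay between 0.70 and 0.86. Per1, Sik1 and Btg2 belong to the list of other rapid genes. Per1, a core clock gene that is itself rapidly induced, averaged 929 ± 354 in Ctr and between 682 and 807 in the other groups. As a description over 30 mice, the clock list had no common direction: 8 of its 15 genes had an r above 0 and 7 below. After Per1 the highest were Per2 (r = 0.44) and Arntl (r = 0.39), and the lowest were Nr1d1 (r = -0.37) and Dbp (r = -0.44).

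Other lists were read against the share of all genes called, 5.09% in HD against Ctr and 1.46% in LD against Ctr. Of the 43 other rapid genes, 3 were called in HD against Ctr (6.98%), near the share of all genes. The nuclear receptor Nr4a2 fell by 0.70 (limma adjusted p = 0.343) on the log2 scale, while Zfp36, which destabilises inflammatory mRNAs, rose by 0.53 (adjusted p = 0.493) and Ier3 rose by 0.65 (adjusted p = 0.550). The list's median log2 fold change was -0.06, against -0.61 for the 10 members. None was called in LD against Ctr, Se_LD against Se_Ctr or Se_HD against Se_Ctr, by limma. Of 26 late genes, 1 was called in HD against Ctr (3.85%, below the share of all genes), which was Pcsk1, a prohormone convertase, at -0.62 (limma adjusted p = 0.271). In LD against Ctr 2 were called (7.69%, against 1.46% of all genes), Ptgs2 at 0.56 and Crem at -0.39. Bdnf, which encodes a neurotrophin, was the 1 late gene called in each selenium comparison (3.85%, against 1.46% and 2.06% of all genes), at -0.23 in Se_LD and -0.24 in Se_HD, and these share the Se_Ctr mice. Of 38 identifiers of upstream kinases and transcription factors (37 genes, with Hdac4 under 2 identifiers), 1 was called in HD (2.63%, below the share of all genes), Camk2g at -0.34 (limma adjusted p = 0.337). In LD 2 were called (5.26%, against 1.46% of all genes), Camk2g at -0.26 and Rps6ka2 at -0.34. None of the genes named so far in this paragraph passed after adjustment. Of the 15 clock genes, 1 was called higher and 2 lower in HD against Ctr (20.0%, against 5.09% of all genes), and 1 higher and 3 lower in LD (26.7%, against 1.46%). Called or not, 14 of the 15 were lower in HD (median -0.21), 14 in LD (-0.28) and 14 in Se_Ctr (-0.26) against the same Ctr mice. Of all genes, 48.8%, 48.9% and 48.8% were lower. Against Se_Ctr, 4 of the 15 were lower in Se_LD and 5 in Se_HD, where 51.5% and 51.8% of all genes were. Of the 12 glucocorticoid-induced genes, 1 was called in each direction in HD (16.7%, against 5.09% of all genes). These were Plin4 at 1.26 (limma adjusted p = 0.149) and Tsc22d3 at -0.47 (adjusted p = 0.371). In LD 1 was called, Tsc22d3 at -0.37 (8.33%, against 1.46%). In Se_LD 1 was called, Plin4 at 0.58 (8.33%, against 1.46%). In Se_HD 2 were called (16.7%, against 2.06%), Plin4 at 1.01 and Errfi1 at 0.29. For the high dose pooled over the diets, Plin4 rose by 1.13 and passed after adjustment (limma adjusted p = 0.0125). LD and HD share the Ctr mice, and these counts over short lists carry no test.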

How the data were processed

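Hippocampal RNA of 30 mice was sequenced in single-end reads of 75 bases, 1 library per mouse. Per the study's methods and the submitters' notes, the authors trimmed reads with Trim Galore 0.4.2, aligned them with HISAT2 2.0.4 to NCBIM37, counted them with featureCounts, dropped genes with row sums under 10 reads, and divided counts by DESeq2 1.18.1 size factors. The deposited signal values are these normalised counts, with no transformation or correction for gene length. Each library's values were whole multiples of 1 step in 100% of cases (within 0.05), so reads were recovered for the count tests and the depths.

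The values were tested as log2(normalised count + 1) with limma 3.58.1 (trend, R 4.3.3) and Benjamini-Hochberg adjustment over all genes, after dropping genes whose normalised counts summed to under 10. Comparisons within a diet used its 15 libraries, and all others used the 30. Interactions needed only a contrast p under 0.05. Alternatives were edgeR 4.0.16 and DESeq2 1.42.0 on recovered reads, other pseudocounts, filters and normalizations, library sets as a covariate, and leaving out single mice. Leaving out libraries 13 and 21 together and testing the sets were chosen after seeing the data. Also not planned in advance were leaving out library 13 with the sets as a covariate, and fitting all 30 libraries with that covariate in comparisons within a diet. The methods were tested on simulated data. Exact tests used scipy 1.17.1. The members and lists were chosen with earlier results of these data known. All members were named, with at most 3 called genes per list and comparison by lowest p, and the 10 genes most like the members.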

Additional observations from a re-analysis of the deposited data

Results flagged for a closer look

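In 3 of the 60 sets of 5 mice (10 members in 6 groups), 1 mouse stood far from the rest, and chance alone gives about 1 in 20, which is 3. The gap to the nearest mouse took 0.746 of the group's whole range for Junb in HD library 9, which was the highest of its group at 237 normalised counts. It took 0.759 for Egr1 in HD library 21, the lowest at 513, and 0.721 for Arc in Se_HD library 24, the highest at 1857. The critical value for 5 mice is 0.71.

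For Egr1, the estimates for the high dose differed by diet, by 0.99 on the log2 scale, between the fold change with selenium (0.10) and without it (-0.88). The contrast was tested with limma (95% interval 0.02 to 1.95, unadjusted p under 0.05) and did not pass after adjustment over all genes (adjusted p = 0.997). By the same rule 4.77% of all genes were called. The call was lost without any 1 of 10 single mice (Ctr libraries 1, 7, 19 and 25, HD library 21, Se_Ctr libraries 16 and 28, and Se_HD libraries 6, 12 and 24), with a pseudocount of 10, with a mean of at least 10 normalised counts, and without limma's trend.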

How the results depend on the processing

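Members called by limma are counted out of 10. Without 1 mouse at a time, the counts ran from 0 to 3 in LD vs Ctr, 0 to 8 in HD vs Ctr, 0 to 2 in Se_HD vs Se_Ctr, 0 to 3 in Se_Ctr vs Ctr, 0 to 4 for the pooled high dose, 0 to 2 for the low-dose interaction and 0 to 5 for the high-dose interaction. In the comparisons with Ctr the highest count was always the one without Ctr library 13. Se_LD vs Se_Ctr, the pooled low dose and pooled selenium stayed at 0. Without library 13 and with sets of library numbers as a covariate, the counts were 4 in LD vs Ctr, 7 in HD vs Ctr, 6 in Se_Ctr vs Ctr, 6 for the pooled high dose, 1 for pooled selenium, 5 for the low-dose interaction and 8 for the high-dose interaction, where 1.66%, 5.61%, 1.79%, 4.69%, 2.44%, 3.89% and 5.36% of all genes were called. Without libraries 13 and 21 they were 5, 6, 3, 3, 1, 3 and 3 in the same order, where 2.03%, 4.47%, 1.89%, 3.62%, 2.46%, 4.53% and 4.88% of all genes were called. The covariate alone gave 2 in Se_HD vs Se_Ctr and 1 for the pooled high dose.

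In HD vs Ctr, 1 fit of all 30 libraries gave 1, the same with the covariate 2, edgeR 2 and DESeq2 1. In Se_HD vs Se_Ctr, quantile normalization, edgeR and DESeq2 gave 2 each, and the fits of all 30 libraries 0, with or without the covariate. For the pooled high dose, edgeR and DESeq2 gave 1 each. The high-dose interaction had 0 calls with a pseudocount of 10, with a mean of at least 10, or without limma's trend. Junb in HD vs Ctr ran from -0.80 without Ctr library 13 to 0.0028 without Ctr library 1, where its sign turned. The causes were not tested.

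Over all genes, a mean of at least 10 normalised counts lowered the calls from 292 to 137 in LD vs Ctr, 278 to 140 in Se_Ctr vs Ctr, 176 to 61 for the pooled low dose, 801 to 459 for the low-dose and 1021 to 640 for the high-dose interaction, with fewer genes tested. Fitting all 30 libraries gave 516 in LD vs Ctr, 143 instead of 288 in Se_LD vs Se_Ctr, and 224 instead of 405 in Se_HD vs Se_Ctr. Adding the covariate there gave 515, 149 and 220. Se_LD vs Se_Ctr rose to 436 without Se_Ctr library 28 and 553 without Se_LD library 17. Replicate numbers follow accession order and pair no mice, and the blocked fit was the one with sets of library numbers as a covariate. Depth limits Egr4 and Egr2 most, with 6 and 9 reads in their lowest libraries.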
